A study of Mus musculus with 15 samples.

Results

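The comparison described here is that of murine bone marrow-derived macrophages after 1 h of lipopolysaccharide (LPS) with untreated macrophages. It was made on the 3 libraries labelled LPS for 1 h and the 3 labelled as untreated, which are 6 of the 15 libraries of the study. The cells were C57BL/6 macrophages at day 7 of differentiation, grown from bone marrow in medium with serum and conditioned medium of L929 cells, and the treated cultures received 10 ng/ml LPS. All groups share this strain, day and culture, and the labels give no mouse sex, age or number of animals. Chromatin-associated RNA, the RNA that stays with chromatin during fractionation and that is rich in transcripts still being made, was sequenced in each library. The other libraries came from cells given LPS for 30 min, 2 h or 4 h.

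LPS, a component of the outer membrane of Gram-negative bacteria, is recognised on macrophages by Toll-like receptor 4. Signalling from this receptor activates latent transcription factors, among them NF-κB, AP-1 and interferon regulatory factors. These switch on primary response genes, which by definition need no newly made protein. Their products include transcription factors, feedback inhibitors, cytokines and chemokines, and some of them drive later, secondary genes. LPS also lowers the transcription of some genes that are active in resting macrophages. No inhibitor of protein synthesis is named in the labels, so that primary and secondary transcripts cannot be told apart by that definition here, and the early transcripts are described by their time course alone.

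Between 7774234 and 11892599 estimated counts stood in each of the 6 libraries. At least 1 count was found for 50598 to 60340 of the 113193 transcripts listed, and 46186 had enough counts over the series to be tested. The files name transcripts by Ensembl identifiers, of which 0 matched the reference table of 49997 mouse genes, so that the results are for transcripts, several of which can belong to one gene. The macrophage label could not be set against marker genes for the same reason. In such libraries, fewer cells of a type and less RNA per cell cannot be told apart. One transcript, ENSMUST00000217116.1 (3756 nt), singled out from earlier results, took a large and uneven part of the reads: 11.9%, 17.5% and 34.8% of the estimated counts in untreated replicates 1, 2 and 3, and 11%, 27.0% and 27.7% in 1 h replicates 1, 2 and 3. The ranges of the 2 groups overlapped, and its log2 fold change was 0.38 (standard error 0.56, edgeR quasi-likelihood test, adjusted p = 0.776). Levels below are CPM, which are counts relative to the library size, after TMM scaling, unless TPM, an abundance per length, is named.

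After 1 h of LPS more transcripts were called higher than lower. Of the 46186 transcripts tested, 1354 were raised (2.93%) and 448 were lowered (0.97%) at an adjusted p under 0.05 in edgeR's quasi-likelihood test, fitted with the replicate number as a block. Before adjustment, 4732 transcripts estimated higher and 4261 estimated lower had a p under 0.05. The raised transcripts had a median log2 fold change of 2.56 (quartiles 1.83 and 3.77), or 2.55 with the transcripts at 0 in untreated cells set to their bound. The lowered ones had a median of -1.96 (quartiles -2.69 and -1.54), or -1.95 with those at 0 after LPS at their bound. Over all tested transcripts the median was -0.09. Called transcripts are selected to be large, so that these medians do not describe the whole response. Left without that block, the fit gave 436 raised and 44 lowered transcripts, of which 435 and 44 were among the 1354 and 448.

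Large fitted changes were more frequent among the rises than among the falls that were called. At least 4-fold rises were fitted for 933 of the raised transcripts (68.9%) and at least 16-fold rises for 289 (21.3%). Falls of at least 4-fold were fitted for 217 of the lowered transcripts (48.4%) and of at least 16-fold for 35 (7.81%). Over all tested transcripts, called or not, 15.5% had a fitted change of at least 4-fold in either direction and 4.37% of at least 16-fold. Many of these were transcripts of few counts, as the plot of fold change against level shows. The smallest fitted fold among the calls was 1.64 for a rise and 1.86 for a fall. Rises and falls are not called on equal terms. Of transcripts under 1 CPM in untreated cells, 2.89% were called raised and 0.0118% lowered, and large rises start low. How far the larger folds among the rises come from this selection was not tested, and the 2 directions were not compared over all tested transcripts.

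**Figure D1:**
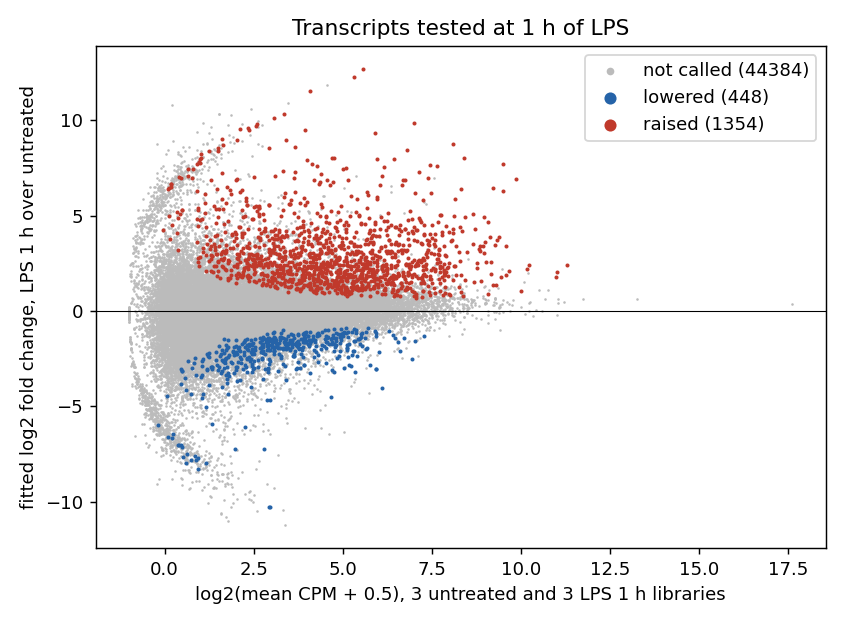
Each point is 1 of the 46186 transcripts tested, with its log2(mean CPM + 0.5) over the 3 untreated and 3 LPS 1 h libraries on the x axis and its fitted log2 fold change at 1 h on the y axis. The 1354 raised transcripts (red) reach larger changes and higher levels than the 448 lowered ones (blue), and the large changes that were not called (grey) lie at low levels.

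How the calls were split between rises and falls varied with scaling and tool, while the called transcripts kept their sign. Of the 1802 calls, 75.1% were raised. This share was 61.7% with library size alone, 41.6% with library size alone after the most abundant transcript was left out, 55.1% in DESeq2, and 33.3% and 49.1% in limma on log2(TPM + 1) and log2(TPM + 0.1). With library size alone, the typical transcript stood at a median log2 fold change of -0.52. Rises and falls are therefore given relative to the typical transcript. Each of the 1354 raised transcripts kept a positive and each of the 448 lowered ones a negative estimate in all 24 other fits that were run, those that left out libraries included. These fits reuse most of the libraries that made the calls, and the smallest called changes were larger than the shifts between scalings, so that few signs could have turned.

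How many transcripts passed the threshold also varied with the libraries in the fit. Without untreated replicate 1, 2 or 3 the test called 571, 303 and 521 raised and 99, 17 and 103 lowered. Without 1 h replicate 1, 2 or 3 it called 623, 621 and 693 raised and 88, 49 and 94 lowered. The number lowered was also 238 without 30 min replicate 3 and 287 without 4 h replicate 1. Without 4 h replicate 3 the calls rose to 1541 raised and 578 lowered. These libraries enter the estimate of the spread and of the block, but why the numbers changed was not tested. In a fit of the 6 libraries alone, edgeR called 0 transcripts in either direction, with 8446 transcripts at an unadjusted p under 0.05, whereas DESeq2 on all 15 libraries called 3189 raised and 2600 lowered.

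Calls made without one replicate number could be read in the pair that had been left out. With all 5 libraries numbered 1 left out, edgeR called 71 transcripts raised. All 71 were higher after LPS in the left-out pair numbered 1, where 45.3% of all tested transcripts were higher. A ratio of more than 4-fold was seen for 67 of the 71 in that pair, against 4.86% of all tested transcripts, and the median log2 ratio of the 71 was 4.13. Only 2 transcripts were called lowered without number 1, and both were lower in the left-out pair. Without number 3 edgeR called 4 raised, each more than 4-fold higher in the pair numbered 3. Without number 2 it called 0 in either direction, with an unadjusted p under 0.05 for 5212 transcripts. These calls are few: without number 1, 70 of the 1354 raised and 0 of the 448 lowered transcripts were called again. Most calls were thus not checked in this way. The transcripts read in 1 pair are not replicates, and the shares over all tested transcripts are not matched for level.

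By library, the raised transcripts moved together in the 3 same-numbered pairs. Their median log2 ratio was 2.26 in pair 1, 2.51 in pair 2 and 2.16 in pair 3, on log2(CPM + 0.5). The medians of the lowered transcripts were -1.62, -2.06 and -1.40. For 1269 of the 1354 raised transcripts all 3 LPS libraries lay above all 3 untreated ones, an order found for 9.22% of all tested transcripts. For 413 of the 448 lowered transcripts all 3 LPS libraries lay below, against 11.5% of all tested. These orders come from the libraries that made the calls.

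Among the raised transcripts measured in all 6 libraries, 959 met the conditions of the naming rule (at least 10 CPM at 1 h, at least 3 counts in every library and no overlap between the groups). Their fitted log2 fold changes ran from 0.78 to 8.46 with a median of 2.42. The largest rise was that of ENSMUST00000201245.1 (1871 nt). It stood at 1.06, 0.273 and 0.463 CPM in untreated replicates 1, 2 and 3, on 19, 3 and 4 counts, and at 363, 132 and 170 CPM at 1 h, on 4067, 1099 and 1468 counts. Every 1 h library was above every untreated one, as the naming rule requires, and replicate 1 was the highest in both groups. The log2 fold change was 8.46 (standard error 0.92, adjusted p = 0.00271 in edgeR).

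This transcript was already high at 30 min, had its highest mean at 1 h (222 CPM, against 141 CPM at 30 min) and then declined. In replicate 2 it was lower at 1 h than at 30 min. Its levels at 30 min were 125, 165 and 134 CPM in replicates 1, 2 and 3. They were 43.6, 28.9 and 108 CPM at 2 h and 4.63, 4.11 and 28.7 CPM at 4 h, with replicate 3 the highest at both times. All 3 libraries at 4 h were thus below all 3 at 30 min. The change from 30 min to 4 h, which uses neither the untreated nor the 1 h libraries as a group, was -3.95 on the log2 scale (edgeR, adjusted p = 0.00717).

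The next largest rise, that of ENSMUST00000022722.6 (2623 nt), had a different course. Untreated replicates 1, 2 and 3 held 3.46, 4.83 and 11.3 CPM, on 62, 53 and 98 counts. The 1 h replicates held 1250, 2130 and 913 CPM, on 13939, 17706 and 7896 counts. The groups did not overlap, as the naming rule requires, and the log2 fold change was 7.69 (standard error 1.02, edgeR adjusted p = 0.00455). At 30 min the 3 libraries were far apart, at 45.4, 1140 and 220 CPM, with replicate 1 nearest to untreated cells. The level went to 1950, 1890 and 2150 CPM at 2 h and 2780, 5000 and 2330 CPM at 4 h. It was higher at 4 h than at 30 min by 3.27 on the log2 scale (edgeR, adjusted p = 0.0291). Per length it averaged 1280 ± 421 TPM at 1 h (SD, n = 3), against 313 ± 205 TPM for ENSMUST00000201245.1. Both rises stayed past the threshold without any single one of the 6 libraries. Both missed it in the fit of the 6 libraries alone (adjusted p = 0.0506 and 0.0575 in edgeR) and when all libraries of 1 number were left out (0.052 to 0.0929).

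**Figure D2:**
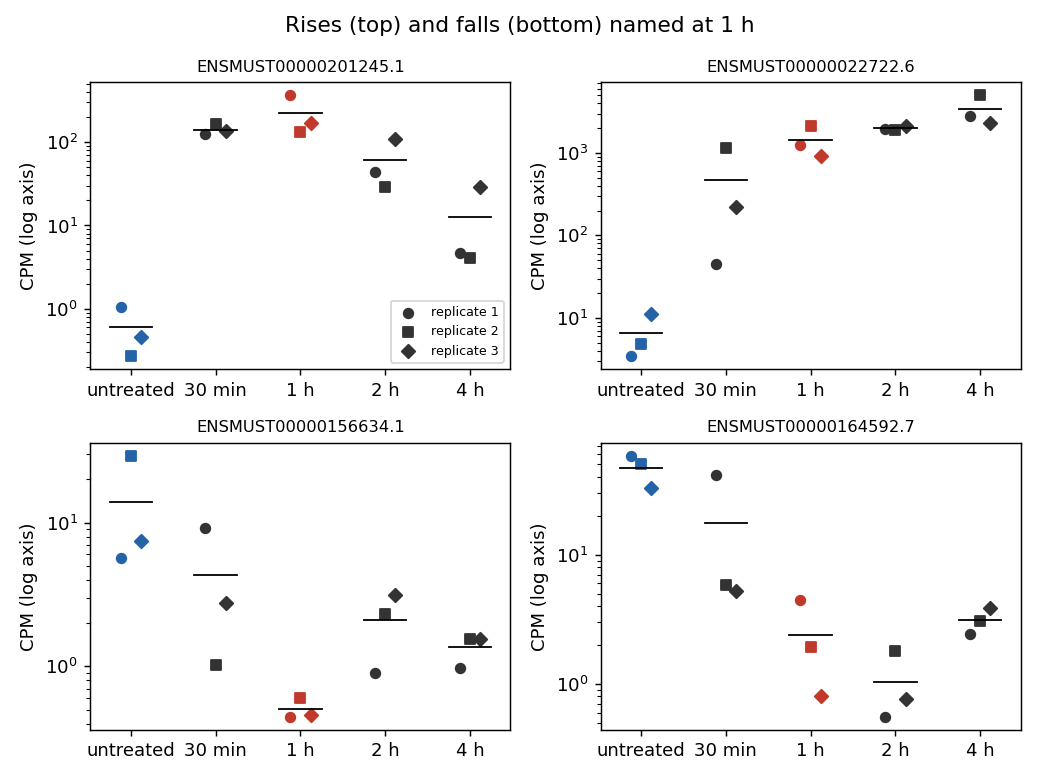
CPM on a log axis in every library for the 2 rises (top) and 2 falls (bottom) named at 1 h, by time, with marker shapes for replicate numbers and lines for group means. Untreated libraries are blue and 1 h libraries red. The rise on the left falls back after 1 h and is lower at 4 h than at 30 min, and the rise on the right goes on to 4 h. Both falls have all 1 h libraries below all untreated ones, which the naming rule requires.

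Most raised transcripts had counts before LPS, and so did most of all tested transcripts. Of the 1354, 33 had 0 counts in all 3 untreated libraries (2.44%, against 1.4% of all tested). A mean of at least 10 CPM was found there for 558 (41.2%, against 26%) and of under 1 CPM for 244 (18%, against 18.3%). The median level of the raised set was 6.67 CPM in untreated cells, against 3.42 CPM for all tested transcripts, and 41.9 CPM at 1 h. By untreated level, 2.89% of tested transcripts under 1 CPM, 2.15% at 1 to 10 CPM and 4.64% at 10 CPM or more were raised. Whether the higher median of the raised set comes from what the test can call was not tested. The starting level differed with the size of the rise. The 289 transcripts with rises of at least 16-fold started from a median of 0.649 CPM and reached 29.8 CPM. The 644 with rises of 4 to 16-fold went from 5.84 to 39.4 CPM, and the 421 with smaller rises went from 18.5 to 49.4 CPM. At 1 h the 3 classes thus lay much closer together than in untreated cells. Fold and starting level come from the same libraries, and a small rise passes the test more easily at a high level. How much of this order comes from the selection was not tested.

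Together the raised transcripts held a larger part of the libraries after LPS. With the most abundant transcript set aside, they held 5.50%, 5.06% and 4.43% of the estimated counts in untreated replicates 1, 2 and 3, and 20.8%, 23.1% and 17.3% at 1 h. The lowered transcripts held 1.77%, 2.07% and 1.39% in untreated cells and 0.439%, 0.333% and 0.422% at 1 h. These shares are of transcripts called on the same libraries and so were selected to differ. The gain was spread over many transcripts: the 10 raised transcripts with most counts at 1 h held 11.9%, 15% and 14.5% of the counts of the raised set in 1 h replicates 1, 2 and 3. Ranked by mean TPM at 1 h, and with the same transcript set aside, 47 of the 100 most abundant transcripts and 373 of the first 1000 were raised, where 2.93% of all tested transcripts were. This ranking uses the 1 h level that the call itself requires to be raised. Of the 100 most abundant in untreated cells, 9 were raised and 1 was lowered, against 2.93% and 0.97% of all tested. These shares over all tested transcripts are not matched for level. With a mean of at least 30 CPM over the untreated and 1 h libraries, 13.2% of transcripts were raised and 1.34% lowered.

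The first lowered transcripts started above the typical tested transcript. Their median was 12.8 CPM before LPS, against 3.42 CPM for all tested, and 3.55 CPM at 1 h. Before LPS 273 of the 448 had a mean of at least 10 CPM (60.9%, against 26% of all tested). Of tested transcripts under 1 CPM in untreated cells 0.0118% were lowered, against 2.27% of those at 10 CPM or more. How far the starting level of the lowered set comes from what the test can call was not tested. After 1 h 19 of the lowered transcripts had 0 counts in all 3 LPS libraries (4.24%, against 1.82% of all tested), and 92 still had a mean of at least 10 CPM (20.5%, against 26.2%). The 35 transcripts with fitted falls of at least 16-fold had a median of only 2.81 CPM in untreated cells and of 0 CPM at 1 h. The size of their fall is therefore poorly measured. The 231 with falls under 4-fold had a median of 20.1 CPM, and it was 6.70 CPM after LPS.

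Among the lowered transcripts, 236 met the conditions of the naming rule, with fitted log2 fold changes from -4.65 to -0.89 and a median of -1.72. The largest of these falls was that of ENSMUST00000156634.1 (2720 nt). It stood at 5.64, 29.0 and 7.40 CPM in untreated replicates 1, 2 and 3, on 101, 318 and 64 counts. At 1 h the levels were 0.447, 0.601 and 0.462 CPM, on 5, 5 and 4 counts. The untreated libraries varied more than the 1 h ones, with replicate 2 the highest, and the groups did not overlap, as the rule requires. The log2 fold change was -4.65 (standard error 0.98, edgeR adjusted p = 0.0286). The call was lost without untreated replicate 2 or 3 (adjusted p = 0.123 and 0.0558) and without 1 h replicate 1, 2 or 3 (0.104, 0.123 and 0.0967), in the fit of the 6 libraries alone (0.0845) and without all libraries of number 1, 2 or 3 (0.108, 0.229 and 0.196). In these fits the log2 fold change lay between -5.01 and -3.56.

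The next fall, that of ENSMUST00000164592.7 (2480 nt), started from a higher and more even level. Untreated replicates 1, 2 and 3 held 58.0, 50.6 and 32.9 CPM, on 1039, 555 and 284 counts, and the 1 h replicates 4.47, 1.92 and 0.809 CPM, on 50, 16 and 7 counts. Replicate 3 was the lowest in both groups, and no 1 h library reached an untreated one, as the naming rule requires. The log2 fold change was -4.48 (standard error 0.81, edgeR adjusted p = 0.0156). At 30 min replicate 1, at 41.7 CPM, lay within the untreated range, while replicates 2 and 3 stood at 5.86 and 5.25 CPM. The levels stayed low later, at 0.558, 1.80 and 0.762 CPM at 2 h and 2.43, 3.08 and 3.88 CPM at 4 h. The call was lost without untreated replicate 2 (adjusted p = 0.0707) and without 1 h replicate 1, 2 or 3 (0.0505, 0.0749 and 0.0663), in the fit of the 6 libraries alone (0.0585) and without all libraries of number 1, 2 or 3 (0.0519, 0.226 and 0.162). The log2 fold change lay between -4.95 and -4.11 in these fits. Neither fall was called between 30 min and 4 h (edgeR, adjusted p = 0.229 and 0.128).

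Lowered transcripts were longer in the median than the tested transcripts as a whole. The median length was 3125 nt for lowered transcripts (quartiles 2112 and 4273), 2344 nt for raised ones (1049 and 3701) and 2088 nt for all tested transcripts (873 and 3463). This did not hold for the steepest falls: the median length was 3657 nt for falls under 4-fold, 2730 nt for 4 to 16-fold and 2058 nt for at least 16-fold. Among the raised transcripts it was 3019, 2160 and 1872 nt in the same classes. The share of tested transcripts that were lowered was 0.116% under 500 nt, 0.292% from 500 to 1000 nt, 0.741% from 1000 to 2000 nt, 1.33% from 2000 to 4000 nt and 1.66% from 4000 nt on. Longer transcripts also had more counts, with a median of 1.13 CPM in the shortest class and 12.7 CPM in the longest.

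The same order was seen among transcripts of like level. For those with a mean of 10 to 30 CPM in untreated cells, the lowered share was 0 of 26 under 500 nt, then 0.524%, 1.48%, 2.17% and 2.86% in the longer classes, on 382, 1082, 4001 and 2340 transcripts. For those of 10 to 30 TPM it went from 0.22% to 3.03%, but their counts still differed with length. The raised share showed no such order at 10 to 30 CPM in untreated cells, at 3.85%, 5.50%, 3.97%, 4.42% and 3.59% from the shortest to the longest class. With the band taken from the mean over all libraries, however, it fell from 25% of 52 transcripts under 500 nt to 1.53% from 4000 nt on, so that for raised transcripts the relation to length depended on how level was set. These shares are a description, with no test. Lengths are those of spliced transcripts as annotated, and gene lengths were not used here.

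**Figure D3:**
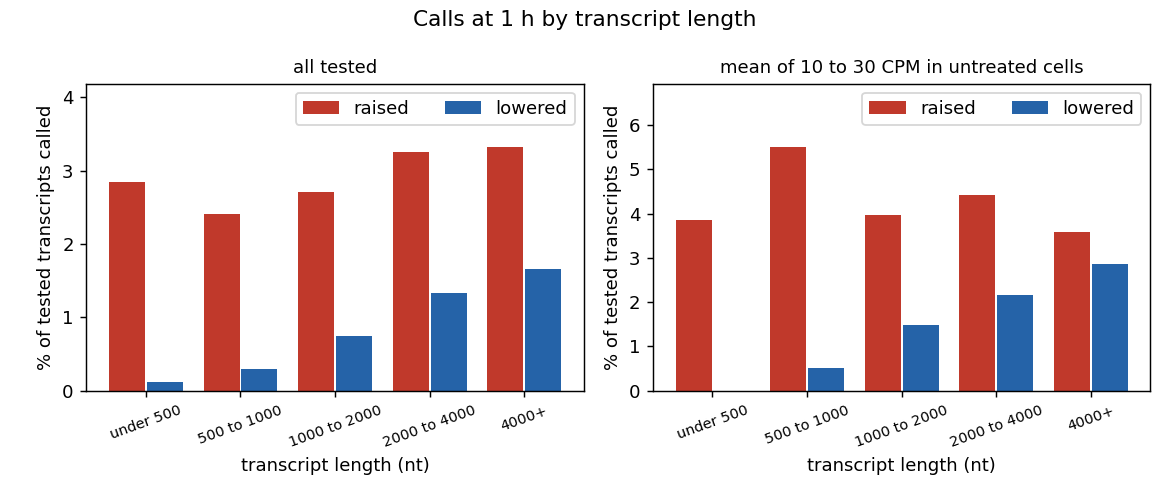
Bars give the percentage of tested transcripts raised (red) or lowered (blue) at 1 h in 5 classes of transcript length, for all tested transcripts (left) and for those with a mean of 10 to 30 CPM in untreated cells (right). The lowered share climbs from 0.116% to 1.66% on the left and from 0 to 2.86% on the right.

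The transcripts called at 1 h had medians on the same side of 0 at 30 min, and at 2 h and 4 h their medians lay closer to 0 than at 1 h. The raised set had a median log2 fold change against untreated cells of 1.81 at 30 min and 2.56 at 1 h, then 2.08 at 2 h and 1.89 by 4 h. The lowered set had medians of -0.90, -1.96, -1.17 and -1.20. All 4 comparisons share the untreated libraries and the sets were called at 1 h, so that the 1 h value is selected to be the most extreme. Of the raised transcripts, 721 had their highest mean level at 1 h itself (53.2%), 168 had it earlier, at 30 min (12.4%), 199 at 2 h (14.7%) and 266 at 4 h (19.6%). Of all tested transcripts, 16.3% had their highest mean at 1 h, 17.9% at 30 min, 16.3% at 2 h and 25.1% at 4 h, so that in the raised set the 1 h share, on which the set was called, was above that of all tested and the shares of the 3 other times were below. Of the lowered transcripts, 307 (68.5%) had their lowest mean at 1 h, 83 (18.5%) at 4 h, 44 (9.82%) at 2 h and 14 (3.12%) at 30 min, against 18.4%, 24.7%, 17.3% and 17.3% of all tested transcripts.

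At 30 min the libraries differed in how far they had moved. Relative to the mean of the untreated libraries, the median log2 ratio of the raised set was 1.01, 2.18 and 1.42 in 30 min replicates 1, 2 and 3, and 2.44, 2.58 and 2.05 in the 1 h replicates. The lowered set stood at -0.43, -1.08 and -0.97 at 30 min and at -1.71, -1.86 and -1.69 at 1 h. Replicate 1 at 30 min was thus the nearest to untreated cells in both sets. At 1 h, 2 h and 4 h the 3 libraries of a time lay closer together.

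**Figure D4:**
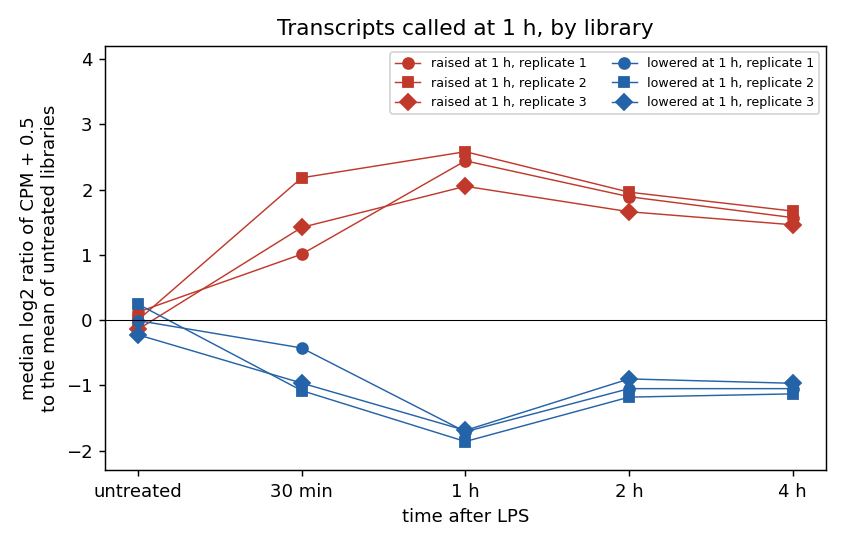
Median log2 ratio of CPM + 0.5 to the mean of the untreated libraries, for the 1354 transcripts raised (red) and the 448 lowered (blue) at 1 h, by time after LPS, with 1 line for each replicate number. At 30 min replicate 1 lies nearest to 0 in both sets, at 1.01 and -0.43, and the 3 libraries at 1 h lie between 2.05 and 2.58 and between -1.86 and -1.69.

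The comparison of 4 h with 30 min has no library in common with that of 1 h with untreated cells, but it is not independent of it. All libraries entered one fit, which gave each transcript one estimate of the spread and of the block. Transcripts called at 1 h are selected in part for a small spread and so pass more easily in either direction. How much of the excess over all tested transcripts comes from this was not tested. It gives the net change over that interval, not the course after 1 h. Of the 1354, 235 were higher at 4 h than at 30 min (17.4%) and 224 were lower (16.5%), while 6.79% and 5.59% of all tested transcripts were called in these directions. The other 895 were not called. Among transcripts with a mean of at least 10 CPM over all 15 libraries, 20.1% of 1023 raised ones were higher and 17.0% lower at 4 h, against 14.9% and 10.9% of all 12871. Between 30 min and 2 h, 210 of the raised transcripts were higher at 2 h (15.5%) and 123 lower (9.08%), against 4.36% and 2.7% of all tested. Between 2 h and 4 h, 13 of the raised transcripts were called higher (0.96%, against 0.338% of all tested) and 35 lower (2.58%, against 0.491%). The number lower at 4 h than at 30 min was 133 and 145 without 30 min replicate 2 or 3 and 128 and 142 without 4 h replicate 1 or 2. Without the block, 116 of the 1354 were higher at 4 h and 117 lower.

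Calls in both directions between 30 min and 4 h were found in every class of fold at 1 h, where 6.79% of all tested transcripts were higher and 5.59% lower at 4 h. Of the 289 transcripts raised at least 16-fold at 1 h, 42 were higher and 38 lower at 4 h than at 30 min. Of the 644 raised 4 to 16-fold, 103 were higher and 132 lower. Of the 421 with smaller rises, 90 were higher and 54 lower. ENSMUST00000022722.6 and ENSMUST00000201245.1, described above, are examples of a higher and of a lower level at 4 h. Against untreated cells the median log2 fold change of the class of at least 16-fold went from 5.20 at 1 h to 4.87 at 2 h and to 4.26 by 4 h. In the other classes it was also lower at 2 h and 4 h than at 1 h. The classes were set by the fold at 1 h, so that their 1 h medians are selected to be the most extreme. These medians alone therefore do not give the course after 1 h.

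The lowered transcripts were also called in both directions between 30 min and 4 h. Of the 448, 86 were lower at 4 h than at 30 min (19.2%, against 5.59% of all tested) and 53 were higher (11.8%, against 6.79%), and 309 were not called. Among those with at least 10 CPM over all libraries, 22.3% of 193 were lower and 16.6% higher, against 10.9% and 14.9% of all 12871. The count of 86 went to 47 without 30 min replicate 1 and to 47 without 4 h replicate 1, and without the block 42 were lower and 27 higher. Whether the number lower exceeded the number higher was not tested. Of the 35 with falls of at least 16-fold, 2 were lower and 5 higher at 4 h.

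**Figure D5:**
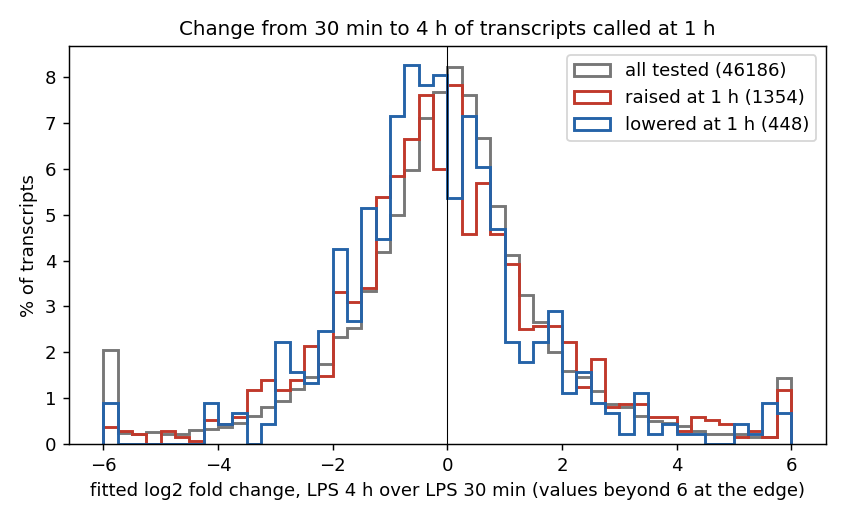
Distribution of the fitted log2 fold change of 4 h over 30 min, as the percentage of transcripts per bin, for all 46186 tested transcripts (grey), the 1354 raised at 1 h (red) and the 448 lowered at 1 h (blue), with values beyond 6 placed in the outermost bins. The medians are 0.00 for all tested transcripts, -0.13 for the raised and -0.30 for the lowered set, and both sets spread to either side of 0.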

How the data were processed

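Kallisto 0.44.0 is named in the submitters' processing notes. Annotation, build and fragment length are not given in the sources used. For every library the authors deposited estimated counts and TPM per transcript. Per the labels the libraries kept no strand, so that reads of opposite overlapping transcripts are mixed, and the division of reads among isoforms carries an error that the files do not give. The estimated counts were rounded, and edgeR 4.0.16 (R 4.3.3) was used for a quasi-likelihood test with terms for group and replicate number, over all 15 libraries, with TMM factors (1.12 to 1.52 in untreated, 0.88 to 1.13 in 1 h libraries). The filterByExpr function (minimum count 10, minimum total 15) kept 46186 transcripts, with 99.1% to 99.6% of the counts of the 6 libraries. Benjamini-Hochberg adjustment ran over all of these. Standard errors were taken from the fold change and its F statistic. Where a group had 0 counts, the bound uses 3 counts in each of its libraries.

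The same replicate numbers in the labels pair the libraries: deviations from group means correlated at 0.258 to 0.545 in all 30 same-numbered pairs of different groups (0.434 to 0.539 for untreated with 1 h). They correlated below 0 in all 60 others. The deviations of a group sum to 0, so that these negative values follow largely from the positive ones and add little. Replicates of a group differed by more than sampling noise. The labels do not say whether they are separate cultures or animals, and the spread that the p-values measure may therefore be technical. Alternatives were DESeq2 1.42.0, limma 3.58.1 on log2 TPM, other scalings, no filter and libraries left out. The naming rule took the 2 largest rises and the 2 largest falls among called transcripts with at least 10 CPM in the higher group, no overlap and at least 3 counts in each of the 6 libraries, and the most abundant transcript. The members, the rule and the length classes were chosen with earlier results of these data known. Lists of genes and markers could not be used, since no identifier matched a gene.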

Additional observations from a re-analysis of the deposited data

How the results depend on the processing

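The numbers raised and lowered at 1 h, 1354 and 448, were 436 and 44 with no replicate block, 0 and 0 with only the untreated and 1 h libraries, 732 and 455 by library size alone, 932 and 1309 by the same scaling without the most abundant transcript, 1285 and 500 with DESeq2 size factors, 999 and 153 with no filter, 3189 and 2600 in DESeq2, 1375 and 2756 in limma on log2(TPM + 1), 1078 and 1117 on log2(TPM + 0.1), and 1319 and 442 with a fold of at least 2. With single libraries left out they ranged from 303 to 1541 and from 17 to 578 (30 min and 4 h libraries were added after seeing the data), and with all libraries of 1 number left out from 0 to 71 and from 0 to 2. The cause of these differences was not tested. Over all tested transcripts the median log2 change lay between -0.52 and -0.03. No alternative turned the direction of a transcript called at 1 h. The calls of both named falls, not of the rises, were lost in some fits that left out 1 library.

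For the raised transcripts, the numbers higher and lower at 4 h than at 30 min, 235 and 224, were 116 and 117 with no replicate block. The lower ones were 357 with library size alone without the most abundant transcript and 356 and 342 in limma. For the lowered transcripts, the numbers 53 higher and 86 lower were 27 and 42 with no replicate block, and the higher ones 35 with library size alone. Running these alternatives on the 4 h against 30 min counts was decided after seeing the data. With libraries left out, the raised transcripts higher at 4 h ranged from 59 to 231 and those lower from 47 to 250, and the lowered transcripts higher from 20 to 50 and lower from 10 to 85. Of all estimated counts, the raised transcripts held 3.97% in untreated cells and 15.97% at 1 h (5.00% and 20.4% without the most abundant transcript), and the lowered ones 1.39% and 0.313% (1.74% and 0.398%). Gene sums were not run, since no identifier matched a gene. Counts of few reads, as in the steepest falls, limit the size of the fold.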
